A study of Mus musculus with 6 samples.

Results

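The genes described here are 10 genes of signalling through LIF, gp130 and STAT3: Lif, Cntf and Clcf1 (ligands), Lifr, Osmr, Il6ra, Cntfr and Il6st (receptor chains), Stat3 and Socs3. They were chosen by name, as the rows of the count table with these symbols, with earlier results of these data known. Each symbol had 1 gene ID, which gave 10 of the 54532 gene IDs in the table. Of the 10, 9 had enough counts to be tested and Cntf did not. Whole retinas were taken on postnatal day 17, and both groups were C57BL/6J and wild type. The comparison is of 3 normal libraries with 3 libraries from OIR, or oxygen-induced retinopathy. In this model pups are kept in high oxygen, which stunts the retinal vessels, and back in room air the tissue lacks oxygen and vessels sprout abnormally. When and for how long oxygen was given, and how many animals stand behind a library, were not among the sources used here. The p-values therefore reflect the spread of these libraries alone.

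Leukaemia inhibitory factor (LIF) belongs to a cytokine family that signals through the shared receptor chain gp130, encoded by Il6st. LIF brings gp130 together with the LIF receptor, the JAK kinases bound to these chains are activated, and they phosphorylate STAT3, which enters the nucleus and acts as a transcription factor. STAT3 induces Socs3, whose protein binds gp130 and JAK and damps the signal. In the injured retina LIF is known as a factor made by Müller glia that supports photoreceptor survival.

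The libraries held 15818168 to 17163513 counts, and 17108 genes were tested. Of these, 19.8% were called at an adjusted p under 0.05 in edgeR's quasi-likelihood test, 11.1% higher and 8.73% lower in OIR retina. As a check of the tissue, the rod transducin gene Gnat1 averaged 9720 CPM in normal and 7003 CPM in OIR retina, where CPM stands for counts per 1e6 counts after TMM scaling. The rod arrestin gene Sag averaged 3841 and 2702 CPM. The lens genes had sums between 5.75 and 276 CPM in the normal group and between 56.3 and 4280 CPM in the OIR group, with OIR 3 highest. By Xist and Y-linked transcripts, Normal 1, Normal 3 and OIR 2 came from males and the other 3 libraries from females, so each group holds RNA of more than 1 animal. No result below was tested for a part played by lens RNA.

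Lif, Socs3, Osmr, Stat3 and Il6ra rose in OIR retina, Il6st rose slightly and Lifr fell slightly. Thus 6 of the 9 tested genes were higher and 1 lower, against 11.1% and 8.73% of all genes tested. As the genes were chosen with earlier results known, these shares are a description only. Lif had enough counts for a test only through the OIR libraries. Of the 9, 5 were called with a fitted rise of at least 2-fold, against 4.99% of all genes tested. The median log2 change of the 9 was 1.63, against 0.01 over all genes tested. For 8 of the 9 the CPM values of the groups did not overlap, which held for 36.8% of all genes tested. In this bulk tissue, a change in the number of cells of a type and a change in RNA per cell cannot be told apart.

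**Figure D1:**
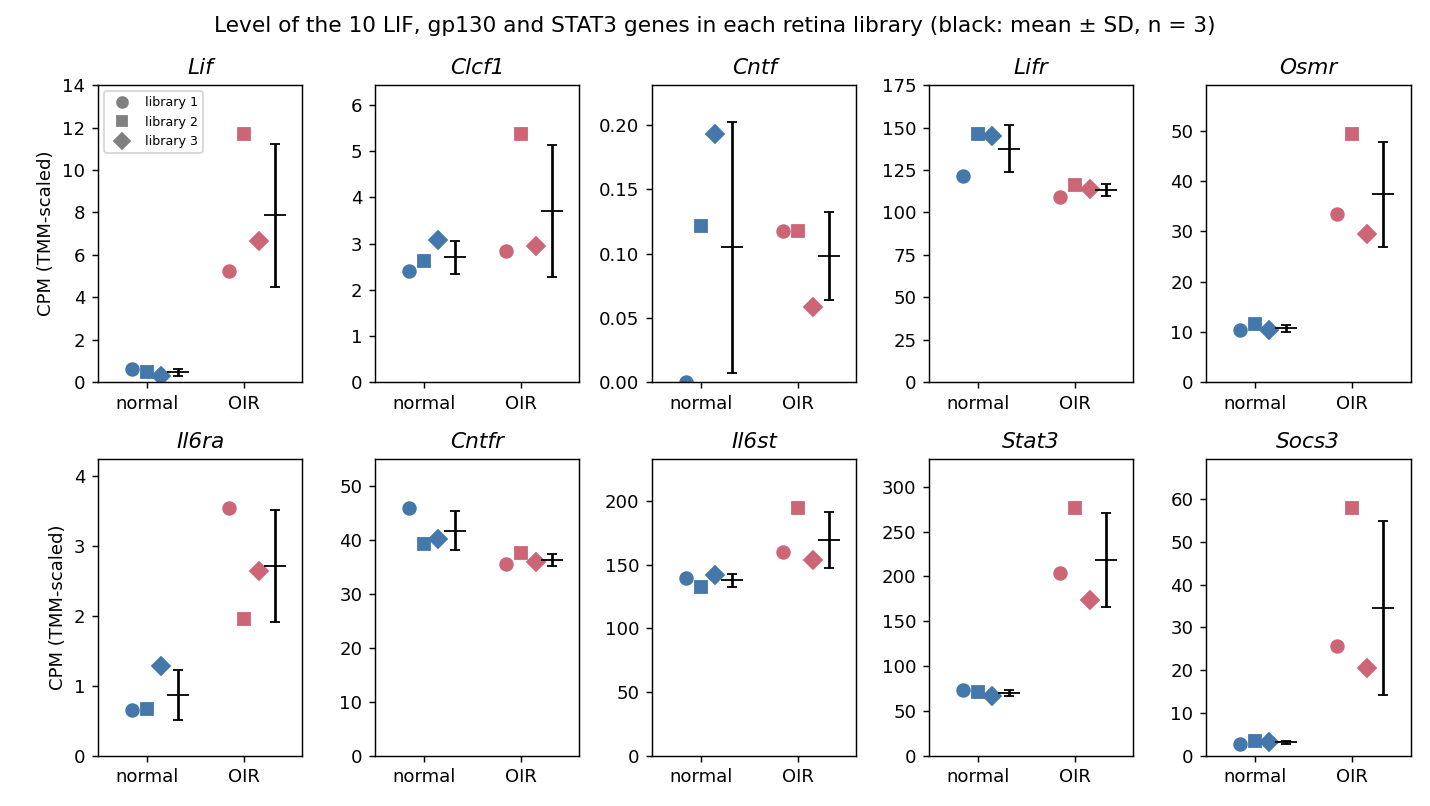
CPM (TMM-scaled, linear axes from 0, a separate scale for each gene) of the 10 genes in the 3 normal (blue) and 3 OIR (red) libraries, with symbols for the library number and the mean ± SD in black. Every OIR value of Lif, Osmr, Il6ra, Il6st, Stat3 and Socs3 lies above every normal value, and OIR 2 (red square) is the highest of the OIR libraries for each of these but Il6ra.

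Among the ligands, Lif had the largest change of the set. Lif (ENSMUSG00000034394, chromosome 11, 4257557 to 4272514, plus strand, mm10) was close to the detection limit in normal retina, with 10, 8 and 4 counts, or 0.599, 0.487 and 0.257 CPM in Normal 1 to 3. In OIR 1 to 3 it had 89, 198 and 113 counts, or 5.25, 11.7 and 6.64 CPM. All OIR libraries lay above all normal ones, and OIR 2 was the highest. The mean went from 0.448 ± 0.174 to 7.85 ± 3.38 CPM (SD, n = 3), a 17.1-fold rise with a 95% interval of 9.24 to 31.8 (log2 change 4.10, standard error 0.403, edgeR adjusted p of 6.53e-05). Only 0.17% of the genes tested had a larger log2 change. An exact two-sided permutation test of 3 libraries against 3 cannot give a p below 0.1.

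The other ligands did not change detectably. Clcf1 (ENSMUSG00000040663, chromosome 19, 4214238 to 4223490, plus strand) encodes a ligand of the CNTF receptor. It had 2.40, 2.62 and 3.09 CPM in Normal 1 to 3 and 2.83, 5.37 and 2.94 CPM in OIR 1 to 3, so the groups overlapped and OIR 2 stood alone. Its log2 change of 0.46 (95% interval −0.18 to 1.10) did not pass (edgeR adjusted p of 0.307), and without OIR 2 it was 0.09. Of the exonic bases of Clcf1, 8.17% are also exons of AC109138.7 on the same strand. Cntf (ENSMUSG00000079415, chromosome 19, 12763660 to 12765632, minus strand), the ciliary neurotrophic factor gene, had 0, 2 and 3 counts in Normal 1 to 3 and 2, 2 and 1 counts in OIR 1 to 3. These 5 counts in each group cannot show a difference. In addition, 78.9% of the exonic bases of Cntf are also exons of Zfp91 on the same strand, a gene with a mean of 203 CPM in normal retina, and the sources used here do not say how reads of overlapping genes were counted. The level of Cntf is therefore uncertain.

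Among the receptor chains, Osmr and Il6ra rose, while the LIF and CNTF receptor genes did not. Osmr (ENSMUSG00000022146, chromosome 15, 6813577 to 6874969, minus strand), which encodes the chain that pairs with gp130 to bind oncostatin M, had 10.2, 11.5 and 10.3 CPM in Normal 1 to 3. In OIR 1 to 3 it had 33.4, 49.3 and 29.5 CPM. Every OIR value was well above the narrow normal range, and OIR 2 was again the highest. The rise was 3.50-fold with a 95% interval of 2.66 to 4.60, from 10.7 ± 0.709 to 37.4 ± 10.5 CPM (SD, n = 3; log2 change 1.81 with a standard error of 0.179, edgeR adjusted p of 6.73e-05).

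Il6ra (ENSMUSG00000027947, chromosome 3, 89864059 to 89913196, minus strand) encodes the chain that binds interleukin 6. It was low in all libraries, with 11, 11 and 20 counts in Normal 1 to 3 and 60, 33 and 45 counts in OIR 1 to 3. In CPM these were 0.659, 0.669 and 1.29 against 3.54, 1.95 and 2.64. The groups did not overlap, and here OIR 2 was the lowest of the OIR libraries. The rise was 3.11-fold with a 95% interval of 1.77 to 5.47 (edgeR adjusted p of 0.0104). Without OIR 1 the log2 change went from 1.64 to 1.39 and no longer passed (adjusted p of 0.0574). Of its exonic bases 2.8% overlap the antisense gene Gm42809, whose reads cannot be told apart without strand.

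Lifr (ENSMUSG00000054263, chromosome 15, 7090614 to 7197489, plus strand), the gene of the LIF receptor chain, fell slightly while its ligand gene rose. It had 121.5, 146 and 145 CPM in Normal 1 to 3 and 109, 116 and 114 CPM in OIR 1 to 3. All OIR values lay below all normal values, but the gap to Normal 1 was small. It was 1.22-fold lower, a log2 change of −0.28 (standard error 0.0825, edgeR adjusted p of 0.0352). This call is fragile: it was lost without Normal 2 (−0.24), Normal 3 (−0.24), OIR 1 (−0.26), OIR 2 (−0.31) or OIR 3 (−0.30), with library totals alone (−0.24) and with the sex of the library as a covariate (−0.29). Cntfr (ENSMUSG00000028444, chromosome 4, 41657498 to 41697089, minus strand), the gene of the CNTF-binding chain, had 45.9, 39.2 and 40.1 CPM in Normal 1 to 3 and 35.5, 37.6 and 35.9 CPM in OIR 1 to 3. The OIR values were all below the normal ones, yet its log2 change of −0.20 (95% interval −0.39 to −0.01) did not pass after adjustment (edgeR adjusted p of 0.126).

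The shared chain rose much less than the ligand. Il6st (ENSMUSG00000021756, chromosome 13, 112464070 to 112510086, plus strand), the gene of gp130, had 139.7, 132 and 142 CPM in Normal 1 to 3. In OIR 1 to 3 it had 160.5, 194.6 and 154 CPM, above every normal value and highest in OIR 2. The rise was 1.23-fold with a 95% interval of 1.07 to 1.41 (log2 change 0.30, edgeR adjusted p of 0.0391). It no longer passed without Normal 1 (0.31), Normal 2 (0.27), Normal 3 (0.32), OIR 1 (0.33) or OIR 2 (0.18), the last with an adjusted p of 0.197.

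Stat3 rose 3.10-fold with a 95% interval of 2.50 to 3.85. This transcription factor gene (ENSMUSG00000004040, chromosome 11, 100885098 to 100939540, minus strand) had 73.6, 70.7 and 66.7 CPM in Normal 1 to 3. In OIR 1 to 3 it had 204, 276 and 174 CPM. The lowest OIR value was thus more than 100 CPM above the highest normal value. The mean went from 70.3 ± 3.46 to 218 ± 52.4 CPM (SD, n = 3; log2 change 1.63 with a standard error of 0.141, edgeR adjusted p of 2.72e-05).

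The feedback inhibitor gene Socs3 rose more than any of the genes above except Lif. Socs3 (ENSMUSG00000053113, chromosome 11, 117966079 to 117970047, minus strand) had 46, 56 and 49 counts in Normal 1 to 3, or 2.76, 3.41 and 3.15 CPM. In OIR 1 to 3 it had 433, 981 and 347 counts, or 25.5, 57.8 and 20.4 CPM. Normal libraries were close together, whereas OIR 2 had more than both other OIR libraries combined. The mean went from 3.10 ± 0.327 to 34.6 ± 20.3 CPM (SD, n = 3), an 11.1-fold rise with a 95% interval of 6.31 to 19.6 (log2 change 3.48, standard error 0.370, edgeR adjusted p of 0.000107). Without OIR 2 the rise was 7.33-fold (log2 change 2.87, adjusted p of 1.34e-05).

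**Figure D2:**
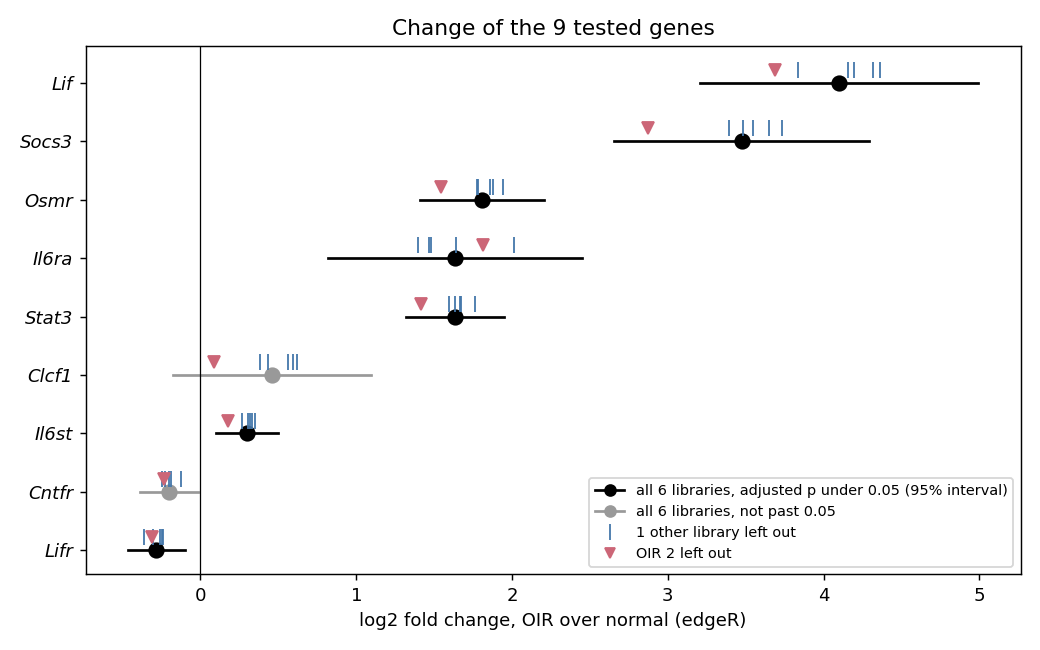
The log2 fold change of OIR over normal retina (x axis, edgeR) for the 9 tested genes, with 95% intervals that are not adjusted for multiple testing. Ticks above each interval give the value with 1 library left out and the red triangle the value without OIR 2, which is the lowest of these for Lif, Socs3, Osmr, Stat3, Clcf1 and Il6st.

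The promoters of these genes were read from RefSeq (GRCm38.p6) for a STAT motif (TTCNNNGAA), an AP-1 motif (TGANTCA), a hypoxia response core (ACGTG) and a cAMP response element (TGACGTCA), on both strands, in the 250 bases before each annotated start. Of the 10 genes, 9 had an entry, with 15 start sites in all. The STAT motif stood in 1 of these windows, 154 bases before the Socs3 start at 117969366, and the motif is found in 7.02% of all 32851 windows of this length. The AP-1 motif stood before Lif, 228 bases from the start at 4257568, and before Cntf, against 6.75% of all windows. The hypoxia core stood before Il6ra and before 2 of the Cntfr starts, against 16.6% of all windows. These 2 Cntfr windows overlap, and their matches are the same bases. The cAMP response element stood in none of the 15, against 1.55% of all windows. The windows of Stat3, Osmr, Il6st and Lifr held none of the 4 motifs. The windows of Socs3, Osmr, Lifr and Cntfr lie downstream of the start of the gene in the count table's annotation. For Socs3 that start is at 117970047, so its STAT motif lies within the gene as annotated there. The Osmr window also lies wholly within exons of coding transcripts. A match in any of the 15 windows is a description and not a binding site. The stretches around the matches before the RefSeq starts of the genes with the largest changes, Socs3 (chr11:117969482-117969550, minus strand) and Lif (chr11:4257318-4257376, plus strand) are printed 5′ to 3′ with the motif in capitals.
Socs3: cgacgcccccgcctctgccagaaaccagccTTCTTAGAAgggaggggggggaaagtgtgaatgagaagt
Lif: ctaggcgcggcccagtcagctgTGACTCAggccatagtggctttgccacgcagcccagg

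OIR 2 was the highest OIR library for 5 of the 6 genes that rose, all but Il6ra. Over all 1901 genes called higher, it was the highest OIR library for 44.8%. OIR 2 was also the only OIR library from a male, so the library and its sex cannot be told apart. Within males the difference of mean log2 CPM was 4.50 for Lif, 4.24 for Socs3, 2.25 for Osmr and 1.98 for Stat3. Within females it was 3.31, 2.70, 1.44 and 1.41 in the same order. For Il6st it was 0.47 within males and 0.25 within females. Il6ra went the other way, with 0.98 within males and 2.01 within females. The male OIR value comes from OIR 2 alone and the female normal value from Normal 2 alone. Each of the 6 genes was thus higher in OIR within either sex, and the difference between the sexes was not tested.

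Per kilobase of gene length, the order of levels changed between the groups. In normal retina the receptor genes led, with 15 CPM per kilobase for Cntfr, 12.8 for Lifr and 12.4 for Il6st, the last pair with overlapping libraries. Stat3 followed with 7.38 ± 0.363 CPM per kilobase, then Socs3 with 1.07, Osmr with 0.881 and Clcf1 with 0.727. Lif, Il6ra and Cntf were lowest, between 0.098 and 0.103 CPM per kilobase, and could not be ordered. In OIR retina Stat3 led with 22.9 ± 5.50 CPM per kilobase (SD, n = 3), and its libraries lay above those of Il6st, with 15.3. Cntfr (13.1), Socs3 (12 ± 7.02) and Lifr (10.5) came next, by their means. The Socs3 libraries ranged from 7.05 to 20.01 CPM per kilobase, which overlapped the ranges of Stat3, Il6st, Cntfr and Lifr, so the place of Socs3 among them is not fixed. In OIR 2 Socs3 stood above Il6st (17.5). Osmr had 3.09, Lif 1.81 and Clcf1 0.999 CPM per kilobase, with overlapping ranges between neighbours. The gene length is that of the table, over all annotated exons, so levels of genes with several transcripts are approximate.

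**Figure D3:**
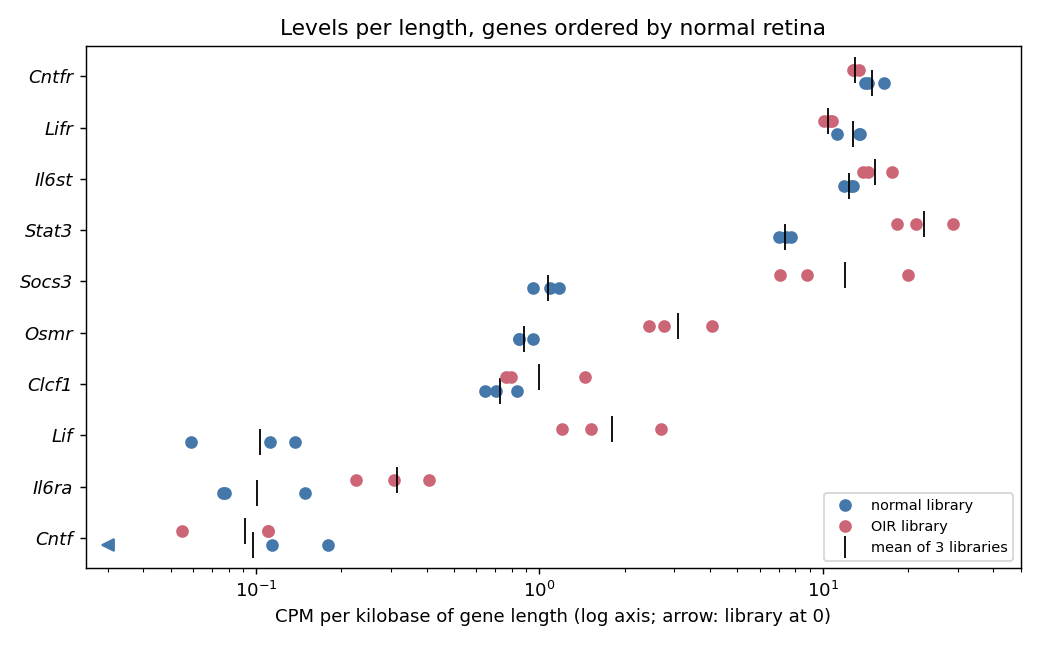
CPM per kilobase of gene length (log axis) for the 10 genes in each normal (blue) and OIR (red) library, ordered from the top by the normal mean, with the mean of 3 libraries as a black bar. Stat3 moves from 7.38 in normal to 22.9 in OIR retina, above the receptor genes, and Socs3 moves from 1.07 to 12.

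The genes whose levels over the 6 libraries were most like those of a member were found by the root mean square difference of centred log2 CPM, among 11605 genes with a mean of at least 5 CPM. For Stat3 they were Itpripl2 (0.0911), Nfkb2 (0.0916), Osmr (0.108) and Adamts1 (0.112). For Osmr they were Stat3 (0.108), the TNF receptor gene Tnfrsf1a (0.151), the plasminogen activator gene Plat (0.162) and Itpripl2 (0.167). Stat3 and Osmr thus stood among each other's nearest genes. For Socs3 the nearest was Gadd45b (0.204), a stress-response gene, and the next, Cd248, Flnc and Prss56, were at 0.323 to 0.325. For Lif the values were larger, 0.362 to 0.369, for Hsd17b2, Igfbp3, Cebpd and Emp1. Lif had only 10, 8 and 4 counts in Normal 1 to 3, so its log2 CPM is less certain there. Likeness here rests mostly on the difference between the groups. Genes with clone or pseudogene names and mitochondrial genes were left out of the candidates. Lif was itself below the floor of 5 CPM, so it could not be listed for another gene.

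Among 67 further pathway genes, in lists chosen with earlier results of these data known, 57 were tested. Of these, 29 were higher and 2 lower, against 11.1% and 8.73% of all genes tested. Their median log2 change was 0.57, against 0.01 over all genes tested. None of the 3 tested ligand genes of the family passed. Among them Ctf1 had a log2 change of −0.23 and Ebi3 of 0.62 (edgeR adjusted p of 0.544 and 0.329), and DESeq2 and limma-voom also called 0. At an unadjusted p under 0.05 edgeR called 0 as well. Osm, the oncostatin M gene, had 0 counts in the normal libraries and 6, 4 and 2 counts in OIR 1 to 3, and Il6 had 3 counts, all in OIR 2. Neither had enough counts for a test. Of the other receptor genes only Il11ra1 was tested and did not pass (log2 change 0.08, adjusted p of 0.67), while Il27ra and Il31ra had 10 and 20 counts in normal and 38 and 28 in OIR libraries. Without Normal 1, Il27ra had enough counts for the test and passed as higher, but with no filter and all 6 libraries it did not pass.

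Among the kinases and adaptors, 3 of 8 rose and none fell, where 11.1% and 8.73% of all genes tested did so. The Janus kinase gene Jak3, best known from lymphoid cells, rose 6.73-fold from 2.25 to 15.2 CPM, with 1.98, 2.86 and 1.93 CPM in Normal 1 to 3 and 13, 19.6 and 13.1 CPM in OIR 1 to 3. The adaptor genes Shc1 and Gab1 rose 1.96-fold and 1.49-fold (edgeR adjusted p of 3.85e-05 and 0.00053). The kinase genes that serve gp130 did not pass: Jak1 had a log2 change of −0.15, Jak2 of 0.08 and Tyk2 of 0.10, with adjusted p of 0.151 to 0.582. Of the 5 other STAT genes tested, Stat6 rose 1.87-fold (adjusted p of 0.00115). Stat2 (0.01) and Stat5b (−0.16) did not pass. Leaving out Normal 3, OIR 2 or OIR 3 gave Stat2 a negative value (−0.0213, −0.0663 and −0.00128).

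Of the 12 other negative regulators tested, 2 rose and 2 fell, where 11.1% and 8.73% of all genes tested did so. Cish and the phosphatase gene Ptpn1 rose 1.38-fold and 1.29-fold (edgeR adjusted p of 0.0415 and 0.0179), and neither passed without Normal 3 or without OIR 2. Cish was also lost without Normal 2 or OIR 1 and with the replicate number as a block (adjusted p of 0.0596). The receptor phosphatase gene Ptprt fell by 0.52 on the log2 scale (adjusted p of 0.0029), and Socs5 fell by 0.22 (adjusted p of 0.0365), a call lost without Normal 3 or any 1 OIR library, with library totals alone, with no filter, with the block and with sex as a covariate (adjusted p of 0.0533 to 0.144 over these). Socs4 (0.23) and Ptpn2 (0.22) did not pass.

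Of the 24 tested genes known as STAT3 targets in various cells, 19 were higher and none lower, against 11.1% and 8.73% of all genes tested. Their median log2 change was 1.66, against 0.01 over all genes tested. This list too was chosen with earlier results of these data known. The transcription factor gene Cebpd rose 22-fold, from 5.57, 6.33 and 3.28 CPM in Normal 1 to 3 to 89.9, 167 and 79.2 CPM in OIR 1 to 3. Like Lif and Socs3 it was highest in OIR 2. The glial filament gene Gfap rose 11.8-fold, the protease inhibitor gene A2m 7.43-fold and the AP-1 gene Fosl2 5.11-fold. Vegfa, the endothelial growth factor gene that hypoxia also induces, rose 3.11-fold, and the cyclin gene Ccnd1 rose 2.82-fold, with edgeR adjusted p of 1.82e-07 to 7.10e-06 over these 6 genes. The NF-kB cofactor gene Bcl3 and the serpin gene Serpina3n, named after their values were seen, rose 17.5-fold and 22.5-fold. The 5 that did not pass were Pim1 (0.17), Bcl2l1 (−0.01), Il4ra (0.29), Klf4 (0.61) and Gadd45g (0.47). Gadd45g passed in 4 alternatives: DESeq2 (adjusted p of 0.0436), library totals alone (0.0452), no filter (0.0207) and without Normal 1 (0.0172).

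Genes linked to LIF in the injured retina rose in 6 of 6 cases, where 11.1% of all genes tested were higher. Their median log2 change was 3.20, against 0.01 over all genes tested. This list was chosen with earlier results of these data known, so its count is a description only. Edn2 and Mt2 had enough counts for a test only through the OIR libraries. Cebpd and Gfap also stand among the STAT3 targets. Edn2, the endothelin gene that damaged photoreceptors are known to express, had 0.12, 0.304 and 0.45 CPM in Normal 1 to 3 and 50.04, 56.4 and 26.8 CPM in OIR 1 to 3. Fgf2, a growth factor gene with a protective role for photoreceptors, had 16.4, 19.6 and 19.4 CPM against 143, 159 and 95.9 CPM. For both genes OIR 2 was the highest and OIR 3 the lowest OIR library. The metallothionein gene Mt1 rose 3.98-fold (edgeR adjusted p of 1.15e-06). Mt2 was low, with 12 counts in normal and 86 in OIR libraries, and its log2 change went from 2.74 to 4.07 without Normal 2.

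**Figure D4:**
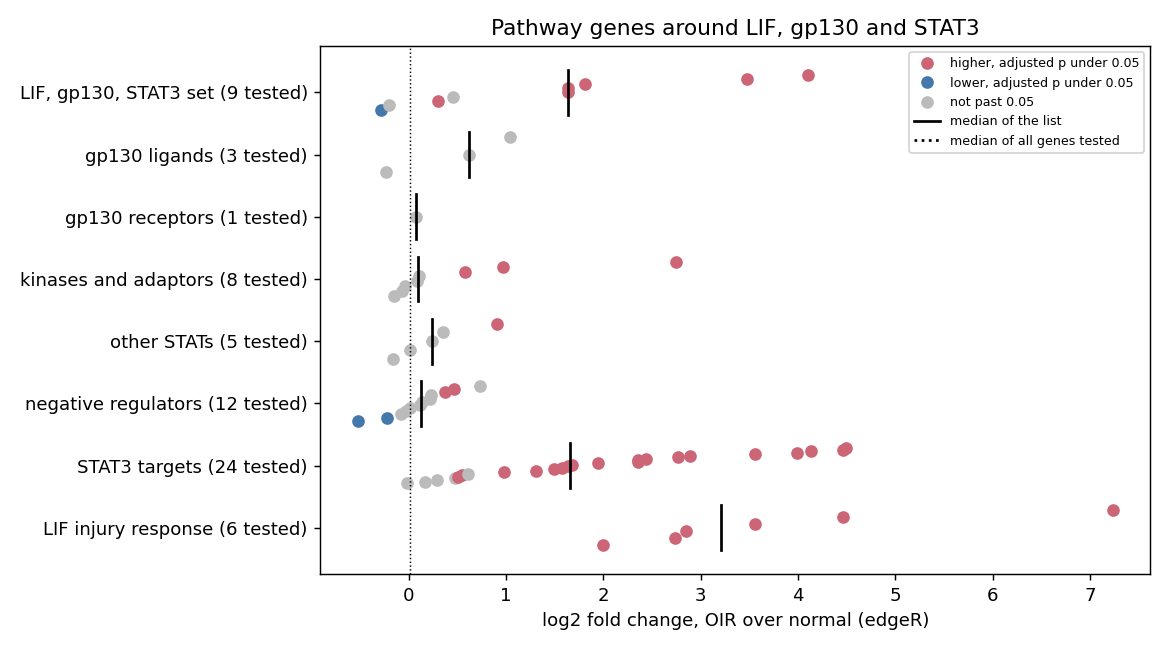
The log2 fold change of OIR over normal retina (x axis, edgeR) for the tested genes of each list, each dot a gene, coloured by call, with the list median as a bar. The STAT3 targets and the genes linked to LIF lie mostly right of the dotted median of all genes tested, 0.01, and the kinases, other STATs and negative regulators lie mostly near it.

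Markers of several cell types also differed between the groups. The counts below stand beside 11.1% higher and 8.73% lower among all genes tested. Of 10 Müller glia markers 5 fell and 2 rose, and their sum went from 4425 to 5027 CPM in the normal group to 3053 to 3792 CPM in the OIR group, lowest in OIR 2. Of 6 astrocyte markers, which include Gfap, 3 rose and 1 fell, with sums of 74.2 to 85.1 and 308 to 390 CPM. Microglia markers rose in 6 of 10 cases, from 64.8 to 77.5 CPM in sum to 102 to 137 CPM, and OIR 2 had the lowest of the OIR sums. The 7 markers of infiltrating leukocytes, among them Ly6c2, Ccr2, S100a8, S100a9, Cd3e and Ncr1, had too few counts to be tested, with sums of at most 1.14 CPM in the normal and 1.42 CPM in the OIR group, and Ncr1 was at 0 in all. Endothelial markers rose in 9 of 10 cases (391 to 454 against 588 to 677 CPM) and mural markers in 6 of 6 (249.5 to 287 against 627 to 692 CPM). OIR 2 had the lowest OIR sum of the endothelial markers and the highest of the mural markers. Immediate early genes, which also respond to tissue handling, rose in 9 of 10 cases, with sums of 174 to 195.5 CPM in the normal and of 512 to 560 CPM in the OIR group. OIR 2, at 529.7 CPM, lay between the other OIR libraries. Rod markers fell in 4 of 8 cases, bipolar markers in 5 of 5, amacrine and horizontal markers in 5 of 6 and pigment epithelium markers in 4 of 6. None of 7 ganglion cell or 7 lens markers passed. The part of these cell types in the changes of Lif, Socs3, Osmr, Stat3 and Il6ra was not tested.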

How the data were processed

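The authors deposited unnormalized gene counts of 6 libraries in 1 table. The submitters' processing notes name HISAT2 2.0.5, featureCounts 1.5.0-p3, fastp, CASAVA 1.8, DESeq2 1.20.0 and the build mm10, with no settings; the annotation release, strandedness and read filters were not among the sources used here. TRIzol extraction and a NEBNext Ultra RNA kit are given per the labels' protocols. Columns were matched to samples by group, day and number in their names; those with no OIR in the name are the normal libraries. Gene length, another deposited column, was used for levels per kilobase.

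Deposited counts were tested with edgeR 4.0.16 in R 4.3.3 (quasi-likelihood), with TMM scaling, filterByExpr (minimum count 10, total 15), no covariate and Benjamini-Hochberg adjustment over 17108 genes, called at 0.05. A standard error is the log2 change over the square root of F. Log2 CPM used a prior count of 2. Alternatives were DESeq2 1.42.0, limma-voom (limma 3.58.1), median-of-ratios size factors, library totals, no filter, at least 1 CPM in 3 libraries, a replicate block, sex as a covariate, each library left out and a threshold of 0.01. No 2 libraries of a group agreed within sampling noise (chi-square over degrees of freedom, 7.20 to 23.1). Exon overlaps came from GENCODE vM21, in which 98.3% of matched gene IDs had the same start and end. The genes and lists were chosen with earlier results of these data known. Named genes were all members; up to 6 genes a list by adjusted p, or up to 3 by CPM if fewer than 2 were called; and for Lif, Osmr, Stat3 and Socs3 the 4 most similar genes. Stat6, Pim1, Bcl2l1, Il4ra, Klf4, Gadd45g, Bcl3, Serpina3n, Osm, Il6, Il27ra and Il31ra were named after their values were seen. Some genes of the lists are not reported here.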

Additional observations from a re-analysis of the deposited data

How the results depend on the processing

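Of the 15 alternatives run, all kept the calls of Lif, Osmr, Stat3 and Socs3, with log2 changes of 3.69 to 4.36, 1.55 to 1.94, 1.42 to 1.76 and 2.87 to 3.73, and none called Cntfr or Clcf1. The call was lost in 8 alternatives for Lifr, 7 for Il6st and 2 for Il6ra; apart from the fits named in the report, these were the threshold of 0.01 and, for Il6st, the replicate block. With 1 library left out, 4 to 6 of the 10 genes were higher and 0 to 1 lower, and 26 to 32 of the pathway genes were higher and 1 to 2 lower. The number of lower genes among the 10 was 0 with library totals alone, with sex as a covariate and at 0.01. The number of lower pathway genes was 1 in these fits, without a filter and with the block. Over all genes, 1237 to 2097 were higher and 761 to 1734 lower with 1 library left out, and 1116 and 647 at 0.01. Bcl2l1 turned to 0.0301 with library totals alone, and ranged from −0.103 to 0.105 with 1 library left out; Pim1 ranged from −0.0324 to 0.44 and Stat2 from −0.0663 to 0.0793. Same-numbered libraries did not deviate together (correlations 0.0612, −0.164 and 0.0739), and 1 of 6 correlated best with its own number, so no pairing by number was seen. Each same number joins a male with a female library, so a weak pairing may not show in this check. With the replicate block, 5 of the 10 genes were higher and 1 lower, as Il6st no longer passed (0.29, adjusted p of 0.0679), and 1680 genes were higher and 1166 lower in all. The cause of these shifts was not tested. Counts of 4 to 20 per library limit Lif and Il6ra in normal retina, and 0 to 3 limit Cntf.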
